A study of Mus musculus with 3 samples.

Results

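The genes described here are 10 of the JAK-STAT pathway and its feedback loop, taken by name from the 27179 genes of the count table through their NCBI gene IDs. They are the kinase genes Jak1 and Jak2, the transcription factor genes Stat3, Stat5a, Stat5b and Stat6, and the feedback genes Socs1, Socs2, Socs3 and Cish, and all 10 were in the table. The RNA came from adipose stem and progenitor cells of C57B6 mice, sorted from epididymal fat of untreated wild-type males aged 12 weeks after collagenase digestion. The sort kept live cells without CD45, CD31 and Ter119 that carried CD140a, Sca1 and podoplanin. There were 3 libraries of this 1 group, with no second genotype, treatment or cell type. The fat came from 3 mice, and nothing in the labels ties each library to 1 mouse. P-values therefore measure only how much these libraries vary, which may include technical variation.

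JAK kinases sit on the inner tails of cytokine receptors that have no kinase of their own. When a cytokine joins the receptor chains, the kinases phosphorylate the receptor and then the STAT proteins, which pair up, enter the nucleus and switch on genes. Among the genes they switch on are the SOCS genes and Cish, whose proteins bind the active receptor or kinase, block it and have it tagged for breakdown, so their RNA is often read as a trace of recent signalling. In fat, growth hormone acts through STAT5, which promotes fat cell formation, IL-4 and IL-13 act through STAT6, and IL-6, LIF, oncostatin M and leptin act through STAT3.

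The libraries held 25060096 to 32813373 counts, and a gene with 0 counts could have a level of up to 3 counts, which is 0.0945 to 0.119 CPM (counts divided by TMM-scaled library size). That limit and the intervals given below cover counting error only, since amplified reads are not independent molecules. Genes of the sorted proteins were abundant, with none of the 3 below 1 CPM in any library and a summed level of 4386 to 5197 CPM. Of 10 leukocyte markers 1 reached 1 CPM in every library, Ptprc (CD45), and the list summed to 6.27 to 15.9 CPM, while Lck, C1qb, S100a8 and S100a9 had 0 counts. No member of the endothelial (6), erythroid (5), mature adipocyte (5), mesothelial (4) and mural (4) lists did so, and the sums of these lists stayed between 0 and 6.62 CPM. In sorted bulk cells, fewer expressing cells and less RNA per cell cannot be told apart.

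The start regions of the feedback genes are shown first, because the STAT proteins act there. STAT dimers bind the letters TTCNNNGAA, and STAT6 also TTCNNNNGAA, both of which read the same on either strand. RefSeq windows of GRCm38.p6 ran from 250 bases before to 50 bases after an annotated start. They were at hand for 9 of the 10 genes, 11 windows in all, with none for Socs2. The windows of Socs3, Stat5a and Stat5b lie wholly inside the annotated gene, so its outermost start was not covered. Socs3, on the minus strand, reaches out to 117970336. The windows of Cish (chr9:107296409-107296708, plus strand), Socs3 (chr11:117969317-117969616, minus strand) and Socs1 (chr16:10785487-10785786, minus strand) are printed 5′ to 3′ with matches to TTCNNNGAA in capitals.
Cish: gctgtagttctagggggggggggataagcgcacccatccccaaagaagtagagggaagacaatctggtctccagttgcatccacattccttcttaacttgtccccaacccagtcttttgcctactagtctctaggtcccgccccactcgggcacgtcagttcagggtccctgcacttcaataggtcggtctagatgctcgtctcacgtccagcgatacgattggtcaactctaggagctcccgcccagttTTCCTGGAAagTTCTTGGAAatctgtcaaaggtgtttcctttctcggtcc
Socs3: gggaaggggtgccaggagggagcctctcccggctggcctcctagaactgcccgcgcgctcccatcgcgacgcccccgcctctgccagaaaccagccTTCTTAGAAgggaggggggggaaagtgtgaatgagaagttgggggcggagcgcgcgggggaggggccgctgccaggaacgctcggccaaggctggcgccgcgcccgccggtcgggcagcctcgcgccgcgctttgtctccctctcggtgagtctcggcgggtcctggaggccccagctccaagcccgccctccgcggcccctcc
Socs1: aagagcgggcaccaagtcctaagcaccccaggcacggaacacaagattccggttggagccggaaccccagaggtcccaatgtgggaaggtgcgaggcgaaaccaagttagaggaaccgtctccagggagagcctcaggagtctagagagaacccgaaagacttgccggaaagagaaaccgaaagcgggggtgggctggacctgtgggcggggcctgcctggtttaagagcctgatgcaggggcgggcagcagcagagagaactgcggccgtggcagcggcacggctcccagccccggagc
Cish held 2 matches, TTCCTGGAA beginning at the annotated start and TTCTTGGAA beginning 11 bases after it. Socs3 held 1, TTCTTAGAA. Socs1 and the windows of Stat3, Stat5a, Stat5b, Stat6, Jak1 and Jak2 held none, and no window of these genes held TTCNNNNGAA. Of all 32851 windows of this length, 8.30% held at least 1 TTCNNNGAA and 0.457% at least 2. A match is only a run of letters, and these data hold no measure of STAT binding.

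Of the 10 genes, 8 were detected, meaning 1 CPM or more in every library, against 35.0% of all genes in the table and 43.7% of protein-coding genes. The 2 that were not detected were Socs3 and Cish. Levels are compared between genes per kilobase of exon, as mean ± SD over n = 3 libraries. On this scale the order was Jak1, Stat6, Jak2, Stat3, Stat5b, Socs1, Socs2, Stat5a, Socs3 and Cish, so the kinases and most STAT genes stood above the feedback genes. The median of the 10 genes was 6.80 CPM per kilobase, beside 0.365 for all genes with a length and 6.55 for all detected genes.

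**Figure D1:**
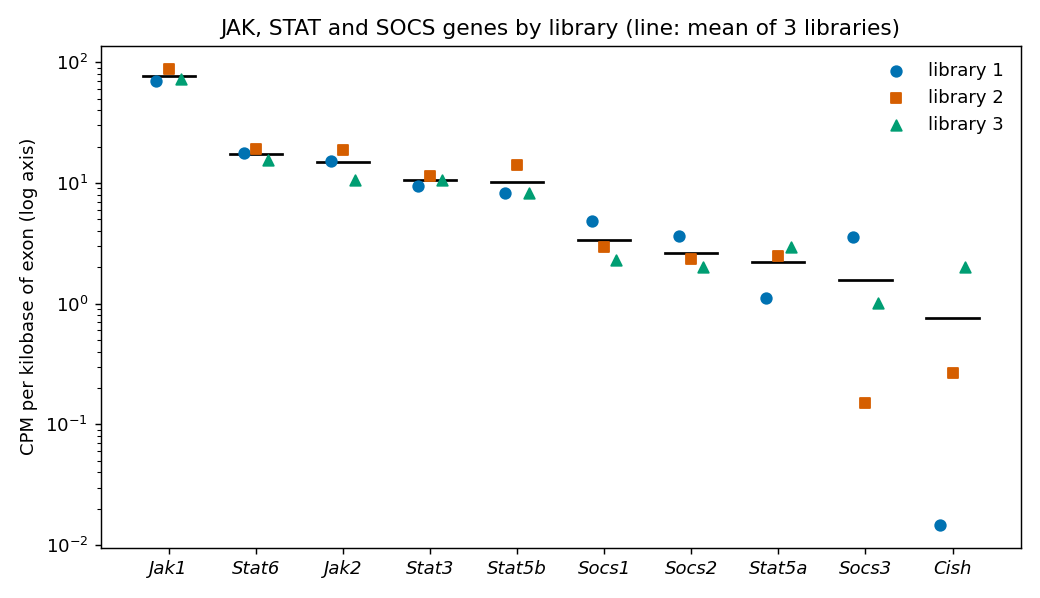
CPM per kilobase of exon (log axis) of each of the 10 genes in the 3 libraries, with a line at the mean. Jak1 lies above every other gene in each library, and the points of Socs3 and Cish lie far apart.

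Jak1, which encodes the kinase shared by gp130, interferon and IL-4 receptors, had the highest level of the 10 genes. It stood at 69.9, 88.3 and 72.2 CPM per kilobase in libraries 1, 2 and 3, or 76.8 ± 10.03, above 92.8% of all detected genes with a length. Jak2, which encodes the kinase of the growth hormone, prolactin and leptin receptors, stood at 15.2, 18.6 and 10.5 CPM per kilobase, or 14.8 ± 4.06. The libraries of these kinase genes did not overlap. Jak1 exceeded Jak2 by 2.37 ± 0.31 on the log2 scale of CPM per kilobase plus 0.5, with each of the 3 libraries positive (two-sided exact permutation of signs, p = 0.25, adjusted p = 0.40 over the 8 fixed pairs of genes). With 3 libraries 0.25 is the smallest p this test can give, so no pair could pass 0.05.

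The other JAK genes were low or near 0. Tyk2, whose kinase serves interferon receptors, stood at 5.17, 10.6 and 20.1 CPM, and Jak3, the kinase gene of lymphoid cells, had 1 count in all. Jak1 thus made up 82.4% ± 1.67 of the summed JAK level per kilobase, Jak2 15.7% ± 3.00 and Tyk2 1.91% ± 1.34.

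Stat6, the factor of IL-4 and IL-13 signalling, was the highest STAT gene per kilobase. It stood at 17.7, 19.3 and 15.3 CPM per kilobase, or 17.5 ± 1.98. Stat3, the factor of gp130 cytokines and leptin, stood at 9.48, 11.5 and 10.6, or 10.5 ± 1.00. Every Stat6 library lay above every Stat3 library. Stat3 minus Stat6 was -0.70 ± 0.18 on the log2 scale, lower in 3 of 3 libraries (exact permutation of signs, p = 0.25, adjusted p = 0.40), and -0.28 with the length of the longest transcript in place of the union of exons. In CPM without length, where levels of different genes do not compare, the sign was the opposite, at 0.38.

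The paralogs Stat5a and Stat5b, which encode the factors of growth hormone and prolactin signalling, were unequal. Stat5b stood at 8.22, 14.1 and 8.29 CPM per kilobase, or 10.2 ± 3.39, and Stat5a at 1.11, 2.50 and 2.97, or 2.19 ± 0.97. The values of the paralogs did not overlap, and Stat5b exceeded Stat5a by 2.02 ± 0.60 on the log2 scale, positive in 3 of 3 (exact permutation of signs, p = 0.25, adjusted p = 0.40), or by 1.40 with the longest transcript. The longest annotated Stat5a transcript has 6 exons, against 19 for Stat5b. Counts cover the whole gene, so values based on this transcript divide all Stat5a reads by the length of that form. The paralogs share sequence. Of all stretches of 50 bases, 10.8% of the longest Stat5a transcript and 11.8% of that of Stat5b also occur in the other gene, so a part of their reads could have been split or dropped in counting. Stat3 minus Stat5b was 0.08 ± 0.33, with the libraries divided in sign (2 of 3 positive, exact permutation of signs, p = 0.75, adjusted p = 0.86), and -0.048 without library 3.

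Stat3, Stat5a and Stat5b lie side by side on chromosome 11 of GRCm38.p6, Stat5b at 100780731 to 100859004, Stat5a at 100859351 to 100885169 and Stat3 at 100886806 to 100939594. In the GENCODE annotation Stat3 and Stat5a run toward each other and share 72 exon bases on opposite strands. Whether counting used strand is not given in the sources used here, so reads of those bases cannot be assigned. Levels of these neighbours differed, with Stat5a below both others in every library.

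Among the STAT genes outside the 10, Stat2, a factor gene of interferon signalling, stood at 3.46 ± 1.81 CPM per kilobase. Stat4 was uneven, with 1, 1 and 190 counts. Of the summed STAT level per kilobase, Stat6 made up 33.0% ± 4.47, Stat3 19.8% ± 1.05, Stat5b 18.9% ± 3.61, Stat2 6.37% ± 3.19 and Stat5a 4.06% ± 1.68.

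Socs1, an inhibitor of interferon and IL-4 signalling that blocks JAK kinases directly, was detected in every library. It had 451, 218 and 186 counts, or 4.89, 2.97 and 2.28 CPM per kilobase (3.38 ± 1.35). Socs2, the main inhibitor of growth hormone signalling, had 1096, 562 and 534 counts, or 3.62, 2.34 and 2.00 CPM per kilobase (2.65 ± 0.86). Both were highest in library 1 and lowest in library 3. Their order depended on the length used: Socs1 minus Socs2 was 0.28 ± 0.12 on the log2 scale with the union of exons and -0.75 with the longest transcript. In addition, 7.23% of the 50-base stretches of the longest Socs2 transcript also occur in the gene Gm9847.

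Socs3, the inhibitor of gp130 and leptin signalling, was low and uneven. It had 326, 11 and 82 counts, or 10.3, 0.436 and 2.93 CPM. Library 1 stood highest and library 2 lowest, and the ratio between them was 23.6 (95% exact counting interval 13.0 to 47.7). The SD of its log2(CPM + 0.5) was 1.76, beside a median of 1.45 for the 500 genes nearest to it in mean CPM, of which 59.0% varied less. Per kilobase it stood at 1.57 ± 1.77, above 11.7% of all detected genes with a length. Socs3 minus Socs1 was -1.24 ± 1.05 and Socs3 minus Socs2 was -0.96 ± 1.07 on the log2 scale, both negative in 3 of 3 libraries (exact permutation of signs, p = 0.25 each, adjusted p = 0.40). The second mean was smaller than its SD. Without library 2 these differences were -0.65 and -0.37.

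Cish, which encodes the SOCS protein CIS and is a classic target of STAT5, was the lowest of the 10 genes per kilobase. It had 3, 43 and 363 counts, or 0.0945, 1.70 and 13.0 CPM. Library 3 stood far above library 1, with a CPM ratio of 137 (95% exact counting interval 46.6 to 668), and the count in library 1 was at the limit that a count of 0 allows. Its SD of log2(CPM + 0.5) was 2.26, larger than that of 79.6% of the 500 genes nearest in mean CPM. Annotated Cish exons share 479 bases with the antisense gene Gm17041 and 261 with the pseudogene Gm17040 on the opposite strand, and such reads could not be told apart without strand. Socs3 minus Cish was 0.67 ± 2.01 on the log2 scale, and the library with a positive sign was library 1 alone (exact permutation of signs, p = 1.0). Without library 1 that difference was -0.48. Socs2 minus Cish was 1.63 ± 1.52, positive in 2 of 3 libraries (exact permutation of signs, p = 0.50, adjusted p = 0.67), and 0.94 without library 1.

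Neighbours in the order of the 10 levels were compared in the same libraries that gave the order. The direction of each mean difference was thus largely set beforehand. For Jak1 and Stat6, Stat6 and Jak2, Stat5b and Socs1, and Socs1 and Socs2 the direction was the same in 3 of 3 libraries. These mean differences exceeded their SD. The last of these turned with the longest transcript, as given above. Stat3 and Stat5b, Socs2 and Stat5a, Stat5a and Socs3, and Socs3 and Cish did not differ beyond their spread. Jak2 exceeded Stat3 by 0.44 ± 0.39, but in 2 of 3 libraries only. With the longest transcript that difference turned to -0.19.

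The other SOCS genes were detected in 4 of 4 cases, against 43.7% of protein-coding genes. At 1 CPM per kilobase the count was 2 and at 20 CPM it was 1. Socs5 stood above the feedback genes of the 10. Socs5, linked to EGF receptor and IL-4 signalling, had 127, 89.2 and 132 CPM, or 18.1 ± 3.66 per kilobase. Socs6, Socs4 and Socs7 stood at 2.04 ± 0.78, 1.31 ± 0.77 and 0.828 ± 0.490 per kilobase. Socs5 made up 59.0% ± 2.82 of the summed level per kilobase of the SOCS genes and Cish, with 57.2% to 62.2% in single libraries. Socs1 made up 11.1% ± 3.77, Socs2 8.72% ± 2.37, Socs3 4.65% ± 5.02 and Cish 2.41% ± 3.23. The share of Socs3 ran from 0.622% to 10.3% and that of Cish from 0.0426% to 6.09%, and the libraries with the highest values of these genes differed.

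The spread of the 10 genes between libraries was tested with edgeR's quasi-likelihood fit, as each gene's dispersion against the trend of genes of its abundance. No member was called, and neither was any gene, 0 of 13289 or 0.00% (edgeR quasi-likelihood F, Benjamini-Hochberg adjusted). At an unadjusted p under 0.05 there were 422 genes, or 3.18%, and 0 of the 10. The smallest member values were those of Cish (edgeR, unadjusted p = 0.13, adjusted p = 0.92) and Socs3 (edgeR, unadjusted p = 0.33, adjusted p = 0.92). With only genes at 10 counts in every library fitted, which leaves out Cish, Socs3 had an unadjusted p of 0.053 (edgeR, adjusted p = 0.97). The residual deviance of edgeR's fit, set against chi-square, called 61 genes, or 0.459%, and again 0 members. In simulated libraries of 12432 genes this quasi-likelihood test called 0 of 200 genes changed 64-fold in 1 library. Its unadjusted p was under 0.05 for 98.5% of them, so a count of 0 does not show that no gene varied. The changed genes were drawn at 10 CPM or more, above the mean CPM of Socs3 (4.54) and Cish (4.92). Genes at the level of these 2 were thus not covered by the simulation.

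**Figure D2:**
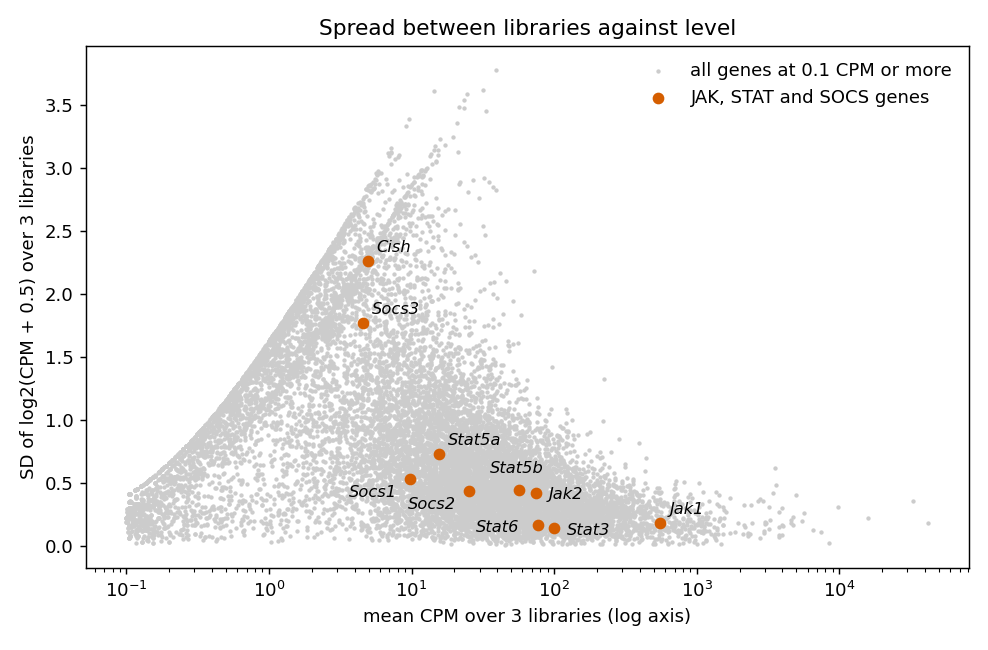
SD of log2(CPM + 0.5) over the 3 libraries against mean CPM (log axis) for genes at 0.1 CPM or more (grey) and the 10 genes (orange). Cish and Socs3 lie at 2.26 and 1.76, and Stat3 and Stat6 at 0.14 and 0.17.

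Stat3 and Stat6 were the steadiest of the 10. Stat3 had 90.3, 109 and 101 CPM, with an SD of log2(CPM + 0.5) of 0.14, and 9.80% of the 500 genes nearest in mean CPM varied less. Stat6 had 78.0, 84.9 and 67.6 CPM, with an SD of 0.17, and 14% varied less. Their libraries lay within a ratio of 1.21 and 1.26 from lowest to highest. The corresponding ratio was 1.26 for Jak1, 1.77 for Jak2, 1.72 for Stat5b, 2.68 for Stat5a, 1.81 for Socs2 and 2.14 for Socs1. All 8 of these genes lay closer together between libraries than Socs3 and Cish did, and those 2 also had the lowest mean CPM.

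Genes with a library pattern like that of Socs3 were sought among 7898 genes at 10 CPM or more. Of these, 6 came within 0.25 of the deviations of Socs3 from its mean in every library (log2 scale). Closest were Fut11, Cenpl, Cblb, Gm7072 and Pcdh20. The nearest, Fut11, had 130, 9.87 and 35.3 CPM. For Cish 3 genes came this close, Gsta4, Foxred1 and Pdk1, followed by Adgrf5 and Oxnad1, and Gsta4 had 1.61, 6.82 and 42.9 CPM. The cut at 10 CPM lies above the mean CPM of Socs3 (4.54) and Cish (4.92), so genes nearest to them in level were left out. Whether such patterns were rare was not tested. Likeness over 3 libraries describes these libraries only.

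Upstream of the 10 genes, the receptor chains of gp130 cytokines and leptin were detected in 6 of 7 cases, against 43.7% of protein-coding genes. Lifr, the LIF receptor chain, stood at 29.2 ± 7.63 CPM per kilobase, Il11ra1 at 26.5 ± 2.16, the shared chain gp130 (Il6st) at 24.3 ± 0.211 and the oncostatin M receptor chain Osmr at 11.5 ± 3.40. Il6st was nearly equal in the 3 libraries, at 272, 268 and 269 CPM. The leptin receptor gene Lepr was lower and uneven, at 2.71, 18.7 and 2.46 CPM, and Cntfr, at 1.35, 0.634 and 2.25 CPM, was not detected.

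Receptors of cytokines that act through STAT5 and STAT6 were detected in 7 of 16 cases, close to the 43.7% of protein-coding genes. The count was 2 at a threshold of 5 CPM and 3 at 1 CPM per kilobase. Il13ra1, a chain of the IL-4 and IL-13 receptor, stood at 18.5 ± 7.45 CPM per kilobase and the growth hormone receptor gene Ghr at 13.5 ± 2.95. The IL-4 receptor chain Il4ra was lower, at 5.10, 4.99 and 13.4 CPM, or 1.30 ± 0.80 per kilobase. Chains best known from blood cells were mixed. Csf2ra was at 2.55, 2.14 and 17.9 CPM, Il3ra at 3.97, 5.19 and 4.18 and Il2ra at 1.10, 7.13 and 4.89, all detected. Others were near 0: over the 3 libraries Il7r had 1 count, Il2rb 3, Il5ra 4, Csf2rb 4 and Csf3r 5. Of the interferon and IL-10 receptor family 5 of 8 were detected, against 43.7% of protein-coding genes. Ifngr1 led at 105 ± 22.1, with Ifnar2 at 20.4 ± 4.41 CPM per kilobase.

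Of 17 genes of ligands for these receptors, 4 were detected, a share below the 35.0% of all genes. They were Il6 at 59.3, 22.9 and 40.1 CPM, Tslp at 17.8, 8.60 and 28.0, Il7 at 22.7, 20.7 and 29.9 and Lif at 22.2, 4.76 and 22.4. Each of the 4 was lowest in library 2, where Socs3 was also lowest, a match noticed after the values were seen. Among all detected genes 32.7% were lowest in that library. Osm, Ctf1, Cntf, Gh, Prl and Ifnb1 had 0 counts in every library.

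RNA of the 4 genes for the proteins that SOCS and CIS recruit to tag their targets was detected. Elob and Eloc, the Elongin B and C genes whose products bind the SOCS box, stood at 246 ± 51.6 and 187 ± 34.4 CPM per kilobase. Rnf7, the RING protein gene of the complex, stood at 83.8 ± 25.1 and its scaffold gene Cul5 at 5.53 ± 2.45, below the median of 6.55 for detected genes. Of 10 other restrainers of the pathway 6 were detected, against 43.7% of protein-coding genes. Highest per kilobase was the phosphatase gene Ptpn2 (72.2, 44.3 and 10.2 CPM). The PIAS genes Pias2 and Pias1 followed at 12.7 ± 2.17 and 9.54 ± 2.13 per kilobase. The phosphatase gene Ptpn11 stood at 6.51 ± 2.40 per kilobase. Ptpn6, the blood cell phosphatase gene, had 0 counts.

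**Figure D3:**
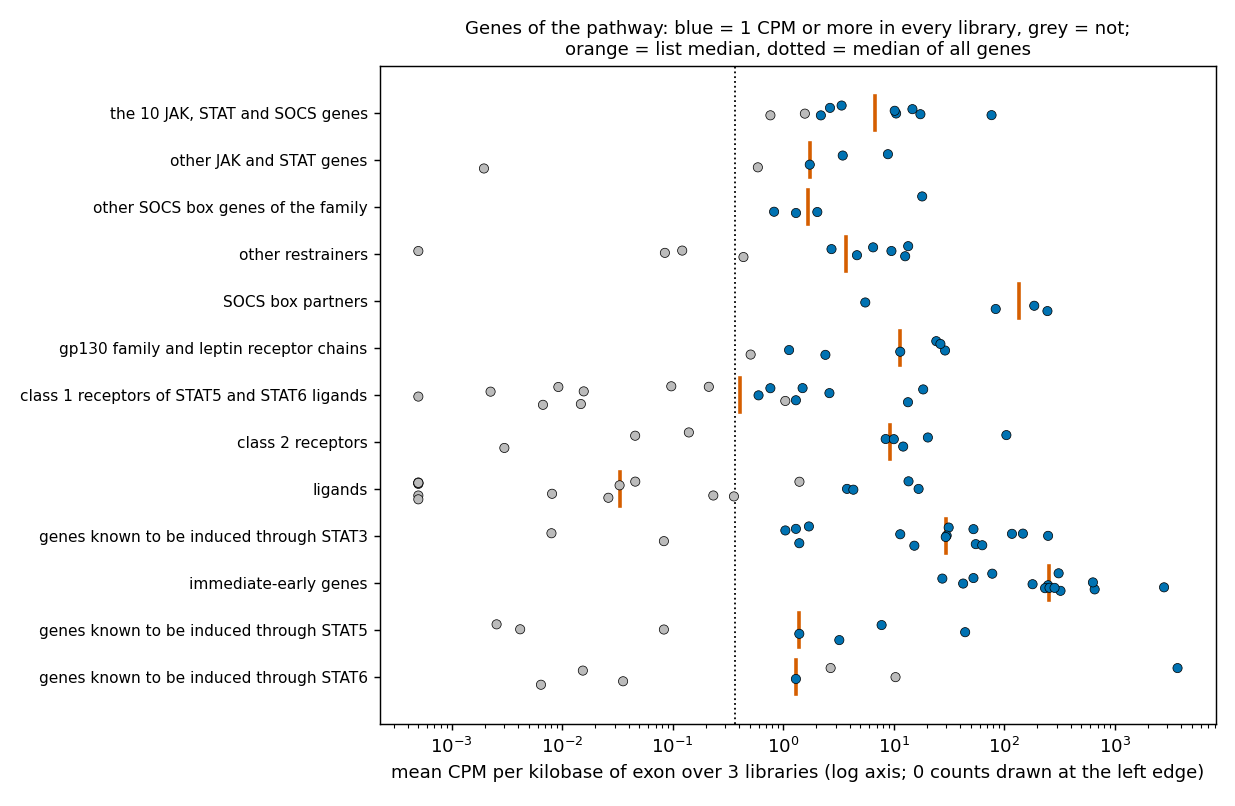
Mean CPM per kilobase of exon over 3 libraries (log axis) for the 10 genes and each list of the pathway, blue where detected, with list medians in orange and the median of all genes (0.365) dotted. Points at the left edge had 0 counts. The median of the 10 genes is 6.80 and that of the immediate-early genes 253.

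Genes that STAT3 is known to induce were detected in 15 of 17 cases, against 35.0% of all genes, with a median of 29.6 CPM per kilobase. At 5 CPM, 20 CPM or 1 CPM per kilobase the count was 11. The highest were Junb at 250 ± 36.3, the survival gene Mcl1 at 148 ± 3.28, Cebpd at 118 ± 26.3 and Timp1 at 63.3 ± 50.005 CPM per kilobase. Many of these genes also answer to other pathways. Timp1 had 106, 21.0 and 41.5 CPM, highest in library 1 and lowest in library 2. Of the 15 detected genes, 7 were lowest in library 2, or 46.7%, against 32.7% of all detected genes. Lcn2 had 2 counts and Bcl6 stood at 0.378, 0.119 and 1.18 CPM.

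Genes that STAT5 is known to induce in liver and other tissues were detected in 4 of 7 cases. Igf1, the growth factor gene driven by growth hormone, stood at 647, 423 and 246 CPM and Ccnd2 at 76.0, 79.6 and 63.96. Igf1 was highest in library 1 and lowest in library 3, where Cish was lowest and highest, respectively. Ccnd1, at 6.71, 20.3 and 18.5 CPM, was lowest in library 1, as Cish was. Of the 4 detected, 3 were lowest in library 3, against 33.5% of all detected genes. Links between these genes and Cish were not tested. Of genes induced by STAT6 in mice 2 of 7 were detected, Ccl11 at 4005 ± 843 CPM and Il4ra. This share was below the 35.0% of all genes. Retnla (11.9, 0.119 and 6.68 CPM) and Arg1 (4.98, 13.0 and 0.0357 CPM) were uneven, Ccl24 had 4 counts and Chil3 had 1. Over all lists together, 68 of 109 genes were detected, against 35.0% of all genes in the table and 43.7% of protein-coding genes.

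Immediate-early genes, which digestion and sorting can induce within minutes, were high. All 14 were detected, against 43.7% of protein-coding genes, and their summed level was 15400 to 17998 CPM. Fos stood at 5932, 6908 and 6884 CPM and Egr1 at 2777, 2912 and 3170. The median SD of log2(CPM + 0.5) was 0.20 for this list, 0.44 for the 10 genes and 0.48 for all detected genes. Spread falls with level, and against the 500 genes nearest in mean CPM 4 of the 14 immediate-early genes varied more than the median, from percentile 13.6 (Ier3) to 72.4 (Ier2). Of the 14 genes, 8 were lowest in library 1, 4 in library 2 and 2 in library 3. Among all detected genes 33.9% were lowest in library 1. Fos was among those 8, while Btg2 (258, 175 and 208 CPM) and Nr4a1 (105, 82.2 and 103 CPM) were among the 4 lowest in library 2. No undigested tissue was measured, and the part of handling in the levels of the feedback genes was not tested.

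**Figure D4:**
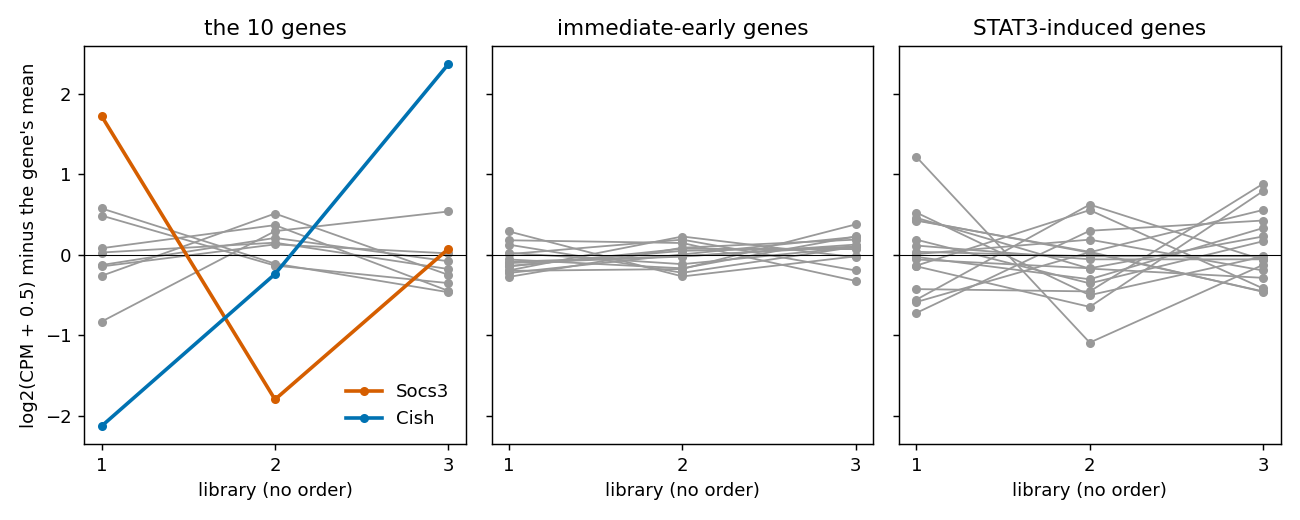
Deviation of log2(CPM + 0.5) from each gene's mean in the 3 libraries, for the 10 genes, 14 immediate-early genes and 17 genes known to be induced through STAT3. Lines join the values of a gene, and the libraries have no order. Socs3 (orange) and Cish (blue) deviate most among the 10 genes and in different libraries.

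Markers of other cells were low and uneven between libraries. Ptprc was at 5.42, 15.8 and 7.68 CPM and the leukocyte list summed to 6.27, 15.9 and 7.68, both highest in library 2, where Socs3 was lowest. The mature adipocyte list, at 1.10, 6.62 and 2.11 CPM, was also highest there, nearly all from Retn at 6.50 CPM, while Adipoq and Cidec had 0 counts. The erythroid list summed to 2.24, 0 and 0.0357 CPM, highest in library 1 like Socs3, and rested on 66 counts of Hbb-bs. The mural list summed to 2.27, 2.50 and 6.57 CPM, highest in library 3 like Cish, with Cspg4 at 5.18 CPM there and Rgs5 at 0 counts. The endothelial list stayed at 0.0945 to 0.198 CPM and the mesothelial list at 0.119 to 0.441. The part of such cells in the values of Socs3 and Cish was not tested.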

How the data were processed

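RNA was measured in 3 libraries. Their kit was the SMARTer Ultra Low Input V4, which copies and amplifies whole transcripts from few cells, per the labels. CASAVA 1.8.2, STAR 2.3.0 and the build mm10 are named per the submitters' processing notes, and how reads were counted, with which annotation and strand setting, is not given in the sources used here. Per gene ID, the authors deposited whole-number read counts, not normalized, and each column carries the number of its sample's title. Names came from RefSeq (GRCm38.p6, 25275 IDs matched) and exon lengths from GENCODE M21 (21610 genes).

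With edgeR 4.0.16 under R 4.3.3, counts were scaled to CPM by TMM, with a pseudocount of 0.5 for log2 values, so log2 differences of low genes are understated. Pairs of genes were compared within libraries with an exact sign-flip permutation test. Spread was tested with edgeR's quasi-likelihood fit on genes with 10 counts or more in at least 1 library, checked on simulated data. DESeq2 1.42.0 gave alternative size factors. No pair of libraries agreed within sampling noise. Python 3.11.15 with numpy 2.4.6, scipy 1.17.1 and pandas 2.3.3 was used. The text names the 10 genes, up to 4 genes of each list with the highest level per kilobase, genes at 0, genes needed for a count and the 5 genes most like Socs3 and Cish. The genes, pairs and lists were chosen with earlier results of these data known. Some genes that this rule names are left out of the text.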

Additional observations from a re-analysis of the deposited data

How the results depend on the processing

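The count of 8 detected genes was 8 at 0.5 or 5 CPM, per kilobase, and with DESeq2 size factors or TMM over filtered genes, 5 at 20 CPM, and 8 to 9 when leaving out 1 replicate. The count of 68 genes over all lists ran from 47 to 72 and stayed within 1.5 times. Of 108 alternative counts for single lists, 96 stayed within 1.5 times and 12 fell below that range, at 5 or 20 CPM or per kilobase. Of 64 alternative values for the 8 pairs, 61 kept their sign. Stat3 minus Stat6 turned to 0.38 without length correction, Socs3 minus Cish to -0.48 without replicate 1 (range -0.48 to 1.37 over single replicates left out) and Stat3 minus Stat5b to -0.048 without replicate 3 (range -0.048 to 0.27). With the longest transcript, Stat3 minus Stat6 was -0.28 and Socs3 minus Socs2 was -1.88. Levels of Socs2, Stat3, Stat5a, Stat6 and Jak1 moved by more than their SD with the longest transcript. Genes called for spread numbered 0 with the quasi-likelihood fit, 61 with residual deviance and 15 with no filter beyond 1 count, and the members called were 0 under each. The fits with a robust prior, with DESeq2 size factors and with 10 counts in every library called 0 genes. No paired analysis was possible because there was 1 group, with no second group to share its replicate numbers. In library 1, Cish was at the 3-count limit.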
